A study of Mus musculus with 8 samples.

Results

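The SLC25 family of mitochondrial carriers was followed in mouse splenic B cells that were sorted by their expression of interleukin-10. The members were taken as all protein-coding genes of the deposited table whose Ensembl identifier maps to a symbol starting with Slc25a, which gave 44 of the table's 26589 genes. RNA was sequenced in 8 bulk libraries, with 4 from IL-10+ B cells and 4 from IL-10- B cells. Both groups came from IL-10-eGFP Tiger mice, whose cells carry a fluorescent reporter of Il10 transcription, and both had been cultured for 48 h with lipopolysaccharide at 3 µg/ml before they were sorted, so every library is of stimulated B cells. The labels give no age, sex or number of mice and leave unsaid what the replicate numbers 1 to 4 stand for. The p-values measure the spread between libraries, part of which may be technical. The study's title links IL-10 production to oxidative phosphorylation, for which these carriers supply substrates.

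Carriers of this family sit, with few exceptions, in the mitochondrial inner membrane, which is closed to most charged metabolites. They exchange ADP for ATP, bring in phosphate, shuttle citrate, malate, aspartate, glutamate and other acids, and supply the matrix with cofactors such as NAD and coenzyme A. They are built by nuclear genes, and the proteins are imported from the cytosol. In activated lymphocytes they link glycolysis, the tricarboxylic acid cycle and the respiratory chain.

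The libraries held 27380398 to 29968285 reads, recovered from the deposited FPKM values (reads per kilobase of gene, scaled to the library's total), so that 1 read in a gene of 1 kb was worth 0.0334 to 0.0365 FPKM. The 5 B cell markers checked had a summed level of 1148.1 to 1449.7 FPKM in the IL-10+ group and 1251.7 to 1706.0 FPKM in the IL-10- group. No marker of T cells, NK cells, macrophages, neutrophils or erythroid cells reached 1 FPKM in 4 libraries. Their summed levels were at most 0.968 FPKM in an IL-10+ library (macrophages) and 1.36 FPKM in an IL-10- library (neutrophils), and no marker was at 0 in all 8 libraries. The 6 plasmablast and plasma cell markers summed to 1331.3 to 1356.6 FPKM in the IL-10+ group and 314.9 to 441.8 FPKM in the IL-10- group, and their part in the differences below was not tested. Il10 itself, on which the cells were sorted, stood at 36.9 ± 5.32 FPKM in the IL-10+ group and 3.17 ± 1.48 FPKM in the IL-10- group (SD, n = 4). Same-numbered libraries of the groups deviated alike from their group means, and the second principal component (27.9% of the variance) set replicates 1 and 2 against 3 and 4 within each group, while the first (53.7%) separated the groups. Counts with the replicate number as a block are therefore given beside those without it.

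Carrier transcripts as a family differed little between the groups. Of the 44 members 33 reached 1 FPKM in at least 4 libraries and were tested with limma on log2(FPKM + 1). Slc25a51, the mitochondrial NAD carrier, was the 1 member that rose in IL-10+ cells, and 3 fell, namely Slc25a11, the oxoglutarate and malate carrier, Slc25a20, the acylcarnitine carrier, and Slc25a46 of the outer membrane (Benjamini-Hochberg adjusted p under 0.05 over all 11329 tested genes). These 4 are 12.1% of the tested members, where 19.7% of all tested genes were called. By direction 3.03% of the members rose, where 10.6% of all tested genes did, and 9.09% fell, where 9.18% did. Leaving out IL-10+ replicate 1 raised the number that fell to 5, and it was 0 in 6 of the other 7 fits that left out 1 library, those without IL-10+ replicate 2, 3 or 4 or IL-10- replicate 1, 2 or 3. No tested member had a log2 change larger than 0.42 in size. The median log2 change was -0.11 over the tested members and -0.06 over all tested genes, and 25 of the 33 members had a negative value. In 8 members (24.2%) the values of the groups were free of overlap, where 25.2% of all tested genes were. Within replicate numbers 17 members were lower and 5 were higher in the IL-10+ library of all 4 numbers, together 22 of 33. Of all tested genes 40.4% were lower and 24.3% higher in all 4 numbers, together 64.7%. With the replicate block 5 members were called higher and 15 lower (60.6% of the tested members, against 53.7% of all tested genes). By direction the blocked shares were 15.2% higher and 45.5% lower among the members, against 20.4% and 33.3% among all tested genes. With the block and median-of-ratios scaling 5 were higher and 15 lower, where 50.6% of all tested genes were called, 22.4% higher and 28.1% lower. With the block and scaling without immunoglobulin and mitochondrially encoded genes 5 were higher and 14 lower. In that fit 50.0% of all tested genes were called, 22.5% higher and 27.5% lower. With median-of-ratios scaling alone 1 was higher and 2 were lower, where 19.0% of all tested genes were called and 7.72% were called lower. With scaling without immunoglobulin and mitochondrially encoded genes alone 1 was higher and none were lower in limma, where 18.3% of all tested genes were called and 6.92% were called lower.

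The summed level of all 44 members was 955.7 ± 71.0 FPKM in the IL-10+ group and 1079.0 ± 87.9 FPKM in the IL-10- group (SD, n = 4). By library it was 864.5, 934.3, 1015.0 and 1008.9 FPKM in IL-10+ replicates 1 to 4, against 954.3, 1081.4, 1148.5 and 1131.7 FPKM in IL-10- replicates 1 to 4. Within each number the IL-10+ sum was the lower one, and the groups overlap. Immunoglobulin transcripts, which share each library's total with the carriers, made up 13.2% to 16.8% of all FPKM in the IL-10+ group and 3.73% to 4.73% in the IL-10- group, and their part in the sum was not tested. Scaling the libraries without immunoglobulin and mitochondrially encoded genes moved the median of the members to -0.08 and that of all tested genes to -0.03. In bulk libraries fewer cells with a transcript and less of it per cell cannot be told apart.

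Levels per length spanned a wide range among the members. Slc25a5, the adenine nucleotide translocase ANT2 of dividing cells, was the most abundant. It made up 43.2% of the members' summed FPKM in the IL-10+ group and 42.5% in the IL-10- group. Relatives without an Slc25a symbol, such as Ucp2, are not in this sum. Slc25a3, the phosphate carrier, followed with 10.8% in the IL-10+ group and 11.0% in the IL-10- group, and Slc25a4, the translocase ANT1, had 7.85% in IL-10+ and 7.98% in IL-10- cells. Only 9 members averaged at least 20 FPKM over the 8 libraries, and 12 tested members averaged under 5 FPKM.

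**Figure D1:**
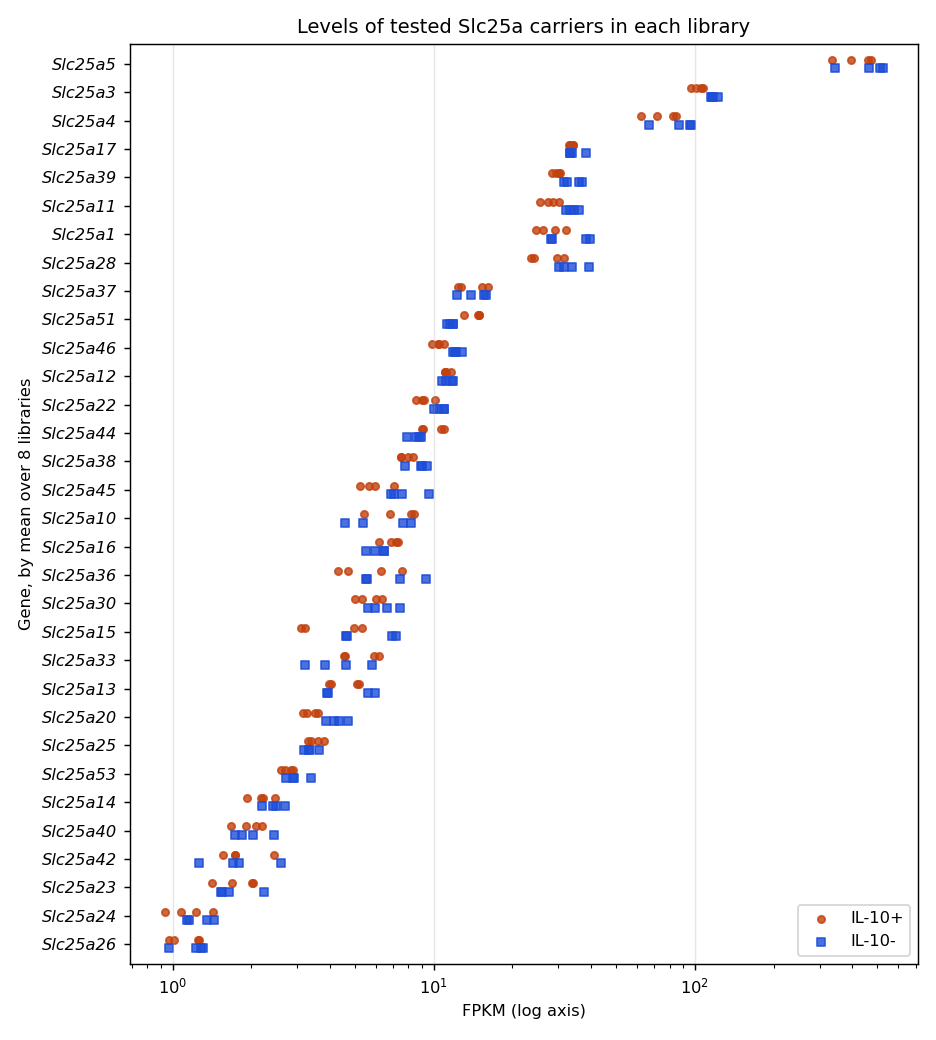
FPKM of tested carriers in each library on a log axis, IL-10+ libraries as circles and IL-10- libraries as squares, ordered by the mean over 8 libraries. Slc25a5 lies between 333.7 and 523.0 FPKM, far above Slc25a3 at 96.6 to 122.4 FPKM, and in most members the values of the groups overlap.

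Among carriers of nucleotides and cofactors 1 of 8 tested members rose and none fell (12.5% called, against 19.7% of all tested genes). With the block 3 were called higher and 2 lower, together 62.5%, against 53.7% of all tested genes. Those higher were 37.5%, against 20.4% of all tested genes, and those lower were 2 of 8, against 33.3%. Slc25a51 (ENSMUSG00000045973, GRCm38 chromosome 4, 45395923 to 45408766) brings NAD into the matrix, as shown in human cells. It stood at 14.9, 14.8, 14.9 and 13.1 FPKM in IL-10+ replicates 1 to 4, against 11.8, 11.5, 11.2 and 11.8 FPKM in IL-10- replicates 1 to 4. Every IL-10+ library was above every IL-10- library. The means were 14.4 ± 0.857 FPKM in the IL-10+ group and 11.6 ± 0.275 FPKM in the IL-10- group (SD, n = 4), a ratio of 1.25, with a log2 change of FPKM + 1 of 0.29 (SE 0.0607, limma adjusted p = 0.00982). The change was smallest in number 4 (0.15) and 0.31 to 0.38 in the others. Its call stood without any 1 of the 8 libraries (highest adjusted p = 0.0378), with either other scaling (0.00698 and 0.00746) and with the block (0.00357). The gene shares 125 of its 5510 exonic bases with Gm25692, a gene annotated on the same strand.

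Slc25a16, a carrier linked to coenzyme A import, and Slc25a33, a pyrimidine nucleotide carrier, passed as higher only with the block. Slc25a16 had 7.18, 7.27, 6.88 and 6.19 FPKM in IL-10+ replicates 1 to 4, against 6.43, 6.45, 5.94 and 5.48 FPKM in IL-10- replicates 1 to 4. The groups overlap, but the difference within a number was 0.14 to 0.18 on the log2 scale in all 4 (adjusted p = 0.183 without and 0.00909 with the block). Slc25a33 had 4.59, 4.53, 6.19 and 5.91 FPKM in IL-10+ replicates 1 to 4, against 3.22, 3.83, 5.80 and 4.60 FPKM in IL-10- replicates 1 to 4. It was high in replicates 3 and 4 of the IL-10+ group and lowest in replicate 1 of the IL-10- group (adjusted p = 0.321 without and 0.0191 with the block).

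Slc25a36, the other pyrimidine nucleotide carrier, had 4.31 to 7.59 FPKM in the IL-10+ group and 5.51 to 9.34 FPKM in the IL-10- group and was lower in all 4 numbers (adjusted p = 0.439 without and 0.00271 with the block). Slc25a17, a carrier of peroxisomes that handles coenzyme A and other cofactors, averaged 33.5 ± 0.613 FPKM in the IL-10+ group and 34.6 ± 2.43 FPKM in the IL-10- group (adjusted p = 0.689). Slc25a42, a coenzyme A carrier, averaged 1.87 ± 0.397 FPKM in the IL-10+ group and 1.84 ± 0.564 FPKM in the IL-10- group (adjusted p = 0.929).

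**Figure D2:**
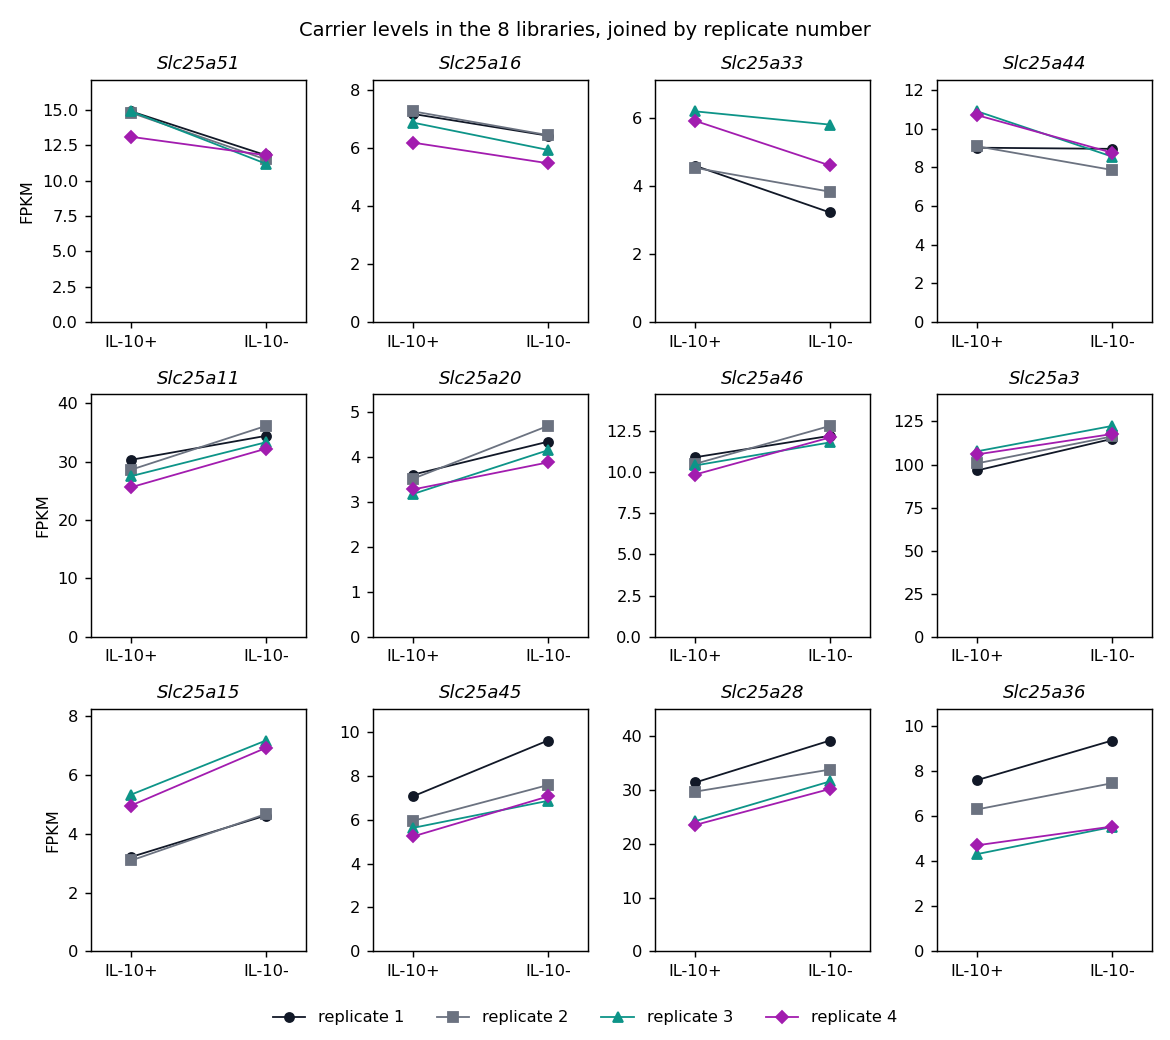
FPKM of 12 carriers in IL-10+ (left) and IL-10- libraries (right), joined by replicate number, with axes that start at 0. The upper row holds members with a positive log2 change, among them Slc25a51 at 13.1 to 14.9 FPKM in IL-10+ against 11.2 to 11.8 FPKM in IL-10- libraries, and the lower rows hold members with a negative one. In Slc25a15 and Slc25a36 the lines run nearly parallel while the replicate numbers lie apart.

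Carriers of di- and tricarboxylates numbered 3, of which 1 fell and none rose (33.3% called, against 19.7% of all tested genes). With the block 1 was called higher and 2 lower (33.3% and 66.7%, against 20.4% and 33.3% of all tested genes). Slc25a11 (ENSMUSG00000014606, GRCm38 chromosome 11, 70644196 to 70647479) exchanges oxoglutarate for malate and so serves the malate-aspartate shuttle, which carries reducing equivalents from cytosolic NADH into the matrix. It stood at 30.3, 28.6, 27.5 and 25.6 FPKM in IL-10+ replicates 1 to 4, against 34.4, 36.1, 33.3 and 32.2 FPKM in IL-10- replicates 1 to 4. The groups do not overlap. Its means were 28.0 ± 1.97 FPKM in the IL-10+ group and 34.0 ± 1.67 FPKM in the IL-10- group (SD, n = 4), a ratio of 0.824, and its log2 change was -0.27 (SE 0.0705, limma adjusted p = 0.0275, 0.00161 with the block). The call ended when libraries were scaled without immunoglobulin and mitochondrially encoded genes (adjusted p = 0.0510, 0.00252 with the block). Leaving out 1 library ended it in 6 of 8 cases. Rnf167, on the opposite strand, shares 189 of the 2120 exonic bases of Slc25a11 and fell as well (11.3 ± 1.60 FPKM in IL-10+ against 15.8 ± 2.78 FPKM in IL-10- libraries, adjusted p = 0.0487). The sources used here do not state whether strand was used in counting, so the levels of such neighbours are uncertain.

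The other carboxylate carriers did not pass without the block. Slc25a1, which exports citrate to the cytosol for lipid synthesis, had 24.6, 26.3, 29.1 and 32.2 FPKM in IL-10+ replicates 1 to 4, against 28.1, 28.3, 38.3 and 39.8 FPKM in IL-10- replicates 1 to 4. The values of the groups overlap, and replicates 3 and 4 were the higher ones in each (adjusted p = 0.270 without and 0.0107 with the block). Slc25a10, the dicarboxylate carrier, leaned the other way, with 5.42 to 8.41 FPKM in the IL-10+ group and 4.57 to 8.17 FPKM in the IL-10- group, and was higher in all 4 numbers (adjusted p = 0.605 without and 0.0483 with the block).

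Slc25a20 (ENSMUSG00000032602, GRCm38 chromosome 9, 108662088 to 108684641), which brings acylcarnitines into the matrix for fatty acid oxidation, fell. Its levels were 3.60, 3.51, 3.17 and 3.27 FPKM in IL-10+ replicates 1 to 4, against 4.33, 4.68, 4.14 and 3.87 FPKM in IL-10- replicates 1 to 4. No IL-10+ library reached the lowest IL-10- library. The ratio of the means was 0.796 and the log2 change -0.26 (SE 0.0703, limma adjusted p = 0.0327, 0.00481 with the block). The call ended with scaling without immunoglobulin and mitochondrially encoded genes (0.0559, 0.00680 with the block), without the filter on low values (0.0714) and in 6 of 8 cases where 1 library was left out. Recovered reads for this gene were 443 to 646 per library.

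Upstream sequences are shown for called carriers of either direction where a window could be shown, and those shown happen to be carriers that fell. RefSeq windows of GRCm38.p6 were matched for 33 of the 44 members, and of the 4 called members Slc25a11 and Slc25a20 had one that could be shown. Each sequence is the 250 bases before the annotated start, 5′ to 3′ on the gene's strand, chr11:70647040-70647289 on the minus strand for Slc25a11 and chr9:108661886-108662135 on the plus strand for Slc25a20. Both windows follow RefSeq's start and lie partly or wholly inside the wider GENCODE gene. Capitals mark matches to the motifs described after them.
Slc25a11: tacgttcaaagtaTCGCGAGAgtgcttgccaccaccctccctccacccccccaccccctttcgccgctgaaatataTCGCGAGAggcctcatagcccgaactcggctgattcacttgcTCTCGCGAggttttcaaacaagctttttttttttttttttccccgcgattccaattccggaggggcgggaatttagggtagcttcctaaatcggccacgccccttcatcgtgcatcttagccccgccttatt
Slc25a20: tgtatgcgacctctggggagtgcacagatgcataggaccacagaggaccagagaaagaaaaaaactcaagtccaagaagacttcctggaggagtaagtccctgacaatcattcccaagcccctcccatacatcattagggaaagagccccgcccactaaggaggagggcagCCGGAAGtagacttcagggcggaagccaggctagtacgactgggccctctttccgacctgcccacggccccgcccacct

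Both strands were searched for the site of the mitochondrial gene regulator NRF1, CCGGAAG, an ETS site, CACGTG, the E-box, TGACGTCA, the cyclic AMP response element, and TCGCGAGA. The last was added after the Slc25a11 window had been read. Slc25a11 held TCGCGAGA 3 times, at 237, 174 and 132 bases before the start. Of the 32851 windows of the same length 0.858% held it at least once, and so did 2 of the 42 member windows. Since the motif was picked from the Slc25a11 window, these shares do not test it. Slc25a20 held CCGGAAG once, 79 bases before the start, a motif of 6.91% of all windows and of 5 of the 42 member windows. The NRF1 site, the E-box and the cyclic AMP response element were in 3.74%, 6.02% and 1.55% of all windows and in 2, 8 and 2 of the 42 member windows, and in neither sequence shown. TCGCGAGA and its reverse complement overlap in part, so a longer match can count on both strands. These letters describe the windows and show no binding.

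Slc25a46 (ENSMUSG00000024259, GRCm38 chromosome 18, 31556111 to 31609911) is a member of the outer membrane that acts in mitochondrial shape and lipid exchange and is not known to carry a metabolite. It stood at 10.9, 10.5, 10.4 and 9.85 FPKM in IL-10+ replicates 1 to 4, against 12.2, 12.8, 11.8 and 12.1 FPKM in IL-10- replicates 1 to 4. The groups do not overlap, and the ratio of the means was 0.853 (log2 change -0.21, SE 0.0565, limma adjusted p = 0.0313, 0.00460 with the block). Its call ended with both other scalings (0.0535 for median-of-ratios size factors, 0.0684 without immunoglobulin and mitochondrially encoded genes), though not when these were combined with the block (0.00795 and 0.00914), and in 7 of 8 cases where 1 library was left out.

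Among amino acid carriers none of 6 tested members passed in limma without the block (2 had an unadjusted p under 0.05). With the block 1 was called higher and 2 lower (16.7% and 33.3%, against 20.4% and 33.3% of all tested genes). Slc25a15, the ornithine carrier of the urea cycle, had the largest log2 change of FPKM + 1 among the tested members. It stood at 3.21, 3.09, 5.33 and 4.96 FPKM in IL-10+ replicates 1 to 4, against 4.62, 4.67, 7.17 and 6.92 FPKM in IL-10- replicates 1 to 4. Replicates 3 and 4 were higher in both groups, so the groups overlap, while the log2 difference within a number was -0.47 to -0.37 (mean -0.42, adjusted p = 0.172 without and 4.66e-04 with the block). Slc25a22, a glutamate carrier, averaged 9.20 ± 0.649 FPKM in the IL-10+ group and 10.5 ± 0.428 FPKM in the IL-10- group (adjusted p = 0.0895 without and 0.0184 with the block).

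Slc25a44, a carrier of branched-chain amino acids, was the 1 of the 6 tested amino acid carriers with a positive change. Its values were 9.02, 9.09, 10.9 and 10.7 FPKM in IL-10+ replicates 1 to 4, against 8.96, 7.87, 8.56 and 8.76 FPKM in IL-10- replicates 1 to 4. The groups do not overlap, but in number 1 the log2 difference was 0.0087, against 0.19 to 0.31 in the others (adjusted p = 0.130 without and 0.0324 with the block). Slc25a12, the aspartate and glutamate carrier aralar, which works with Slc25a11 in the malate-aspartate shuttle, stood at 11.2 ± 0.283 FPKM in the IL-10+ group and 11.3 ± 0.462 FPKM in the IL-10- group (log2 change -0.020, SE 0.0547, adjusted p = 0.834), and the sign of its change turned with other scalings. Its relative Slc25a13, citrin, averaged 4.58 ± 0.660 FPKM in the IL-10+ group and 4.86 ± 1.09 FPKM in the IL-10- group (adjusted p = 0.816). Slc25a38, the glycine carrier of haem synthesis, averaged 7.83 ± 0.419 FPKM in IL-10+ and 8.78 ± 0.695 FPKM in the IL-10- group (adjusted p = 0.194 without and 0.0506 with the block).

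None of the 6 tested carriers of adenine nucleotides and phosphate passed in limma without the block (1 had an unadjusted p under 0.05). With the block 3 were called lower and none higher, so 50.0% were called, against 53.7% of all tested genes (33.3% lower). Slc25a3, which supplies the phosphate for ATP synthesis, had 96.6, 100.7, 107.7 and 105.9 FPKM in IL-10+ replicates 1 to 4, against 114.9, 116.3, 122.4 and 117.7 FPKM in IL-10- replicates 1 to 4. The groups do not overlap (log2 change -0.20, SE 0.0604, adjusted p = 0.0522 without and 0.00227 with the block). Slc25a5 had 333.7, 394.7, 470.9 and 460.0 FPKM in IL-10+ replicates 1 to 4, against 344.1, 465.4, 523.0 and 511.4 FPKM in IL-10- replicates 1 to 4. Its levels were low in replicate 1 of both groups, and the groups overlap widely (adjusted p = 0.569 without and 0.0227 with the block). Slc25a4 ran parallel to it, from 62.3 to 84.4 FPKM in IL-10+ and from 66.6 to 96.5 FPKM in IL-10- libraries (adjusted p = 0.393 without and 0.00650 with the block). Reads of Slc25a5 can be shared with its processed pseudogene copies, and the sources used here do not state how such reads were counted. The ATP-Mg and phosphate carriers Slc25a23, Slc25a24 and Slc25a25, which are regulated by calcium, stood between 0.939 and 3.80 FPKM, with adjusted p of 0.670 to 0.908.

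Of the 4 carriers of iron and glutathione none passed in limma without the block (2 had an unadjusted p under 0.05). With the block 2 were called lower and none higher, so 50.0% were called, against 53.7% of all tested genes (33.3% lower). Slc25a28, which encodes mitoferrin-2, the iron importer of non-erythroid cells, had 31.4, 29.7, 24.2 and 23.5 FPKM in IL-10+ replicates 1 to 4, against 39.2, 33.8, 31.6 and 30.2 FPKM in IL-10- replicates 1 to 4 (log2 change -0.30, adjusted p = 0.114 without and 0.00185 with the block). Slc25a37, mitoferrin-1, best known from erythroid cells, averaged 14.2 ± 1.90 and 14.4 ± 1.67 FPKM in IL-10+ and IL-10- libraries (adjusted p = 0.893), and the sign of its log2 change of -0.028 turned with other scalings. Slc25a39, which imports glutathione, had 28.3 to 30.5 FPKM in the IL-10+ group and 31.5 to 37.0 FPKM in the IL-10- group without overlap (adjusted p = 0.0825 without and 0.0147 with the block). Its relative Slc25a40 averaged 1.97 ± 0.235 and 2.01 ± 0.309 FPKM in the IL-10+ and IL-10- groups (adjusted p = 0.922).

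Of the relatives of the uncoupling proteins, Slc25a30 had 4.99 to 6.32 FPKM in the IL-10+ group and 5.58 to 7.42 FPKM in the IL-10- group (adjusted p = 0.333 without the block, 0.0239 with it and 0.0548 with it and scaling without immunoglobulin and mitochondrially encoded genes) and Slc25a14 averaged 2.20 ± 0.217 and 2.45 ± 0.201 FPKM in these groups (adjusted p = 0.388). Slc25a45, for which no substrate was assigned here, had 7.07, 5.95, 5.63 and 5.24 FPKM in IL-10+ replicates 1 to 4, against 9.61, 7.58, 6.86 and 7.06 FPKM in IL-10- replicates 1 to 4. It was lower in all 4 numbers, by 0.25 to 0.39 on the log2 scale, while the groups overlap (adjusted p = 0.0841 without and 0.00129 with the block). Unblocked fits that left out 1 library gave adjusted p of 0.0471 to 0.184, below 0.05 only without IL-10+ replicate 1. Slc25a53 averaged 2.76 ± 0.138 FPKM in the IL-10+ group and 2.98 ± 0.287 FPKM in the IL-10- group (adjusted p = 0.494).

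**Figure D3:**
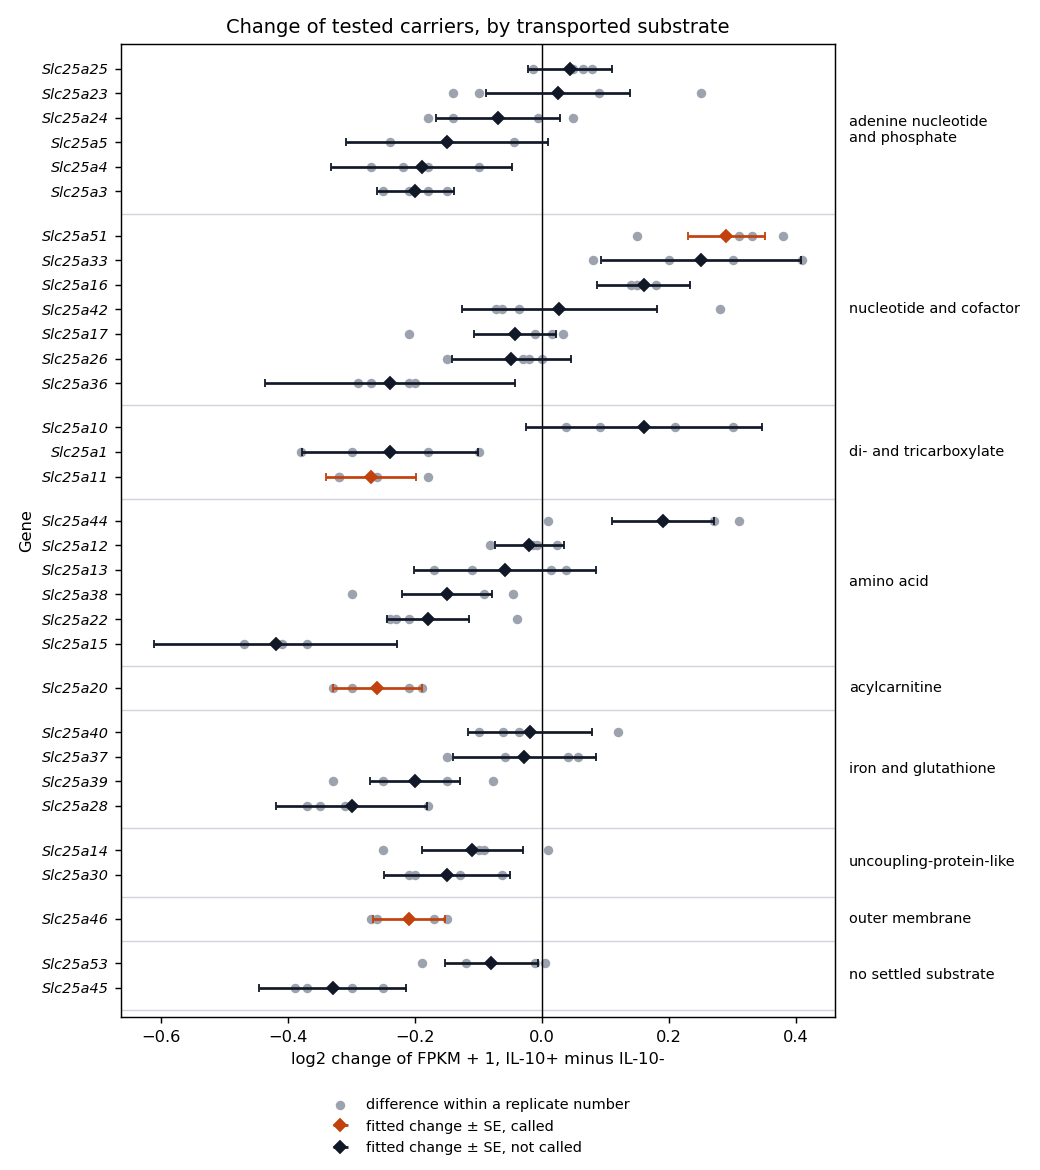
Log2 change of FPKM + 1, IL-10+ minus IL-10-, for tested carriers by substrate, with the fitted change and its SE as diamonds (orange where called) and the difference within each of the 4 replicate numbers as grey points. The points of Slc25a51 and Slc25a16 all lie above 0 and those of Slc25a15 and Slc25a45 all below, and the SE of the fit without the block is wider than the spread of the points in Slc25a15 (SE 0.192) and Slc25a36 (SE 0.197).

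Many carriers differed between replicate numbers. In 9 tested members both libraries of replicates 3 and 4 were above both of 1 and 2 within each group, and in 9 others the reverse held, together 18 of 33. The shares over all tested genes were 21.4% and 24.9%. The first set held Slc25a5, Slc25a3, Slc25a4, Slc25a1, Slc25a15, Slc25a10 and Slc25a33, and the second Slc25a28, Slc25a36, Slc25a45, Slc25a20 and Slc25a11. The labels do not say what the numbers stand for.

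Shares within pairs of related carriers do not depend on how a library is scaled. Of 7 pairs 6 had both members above the filter, and none of the 6 shares passed in an exact two-sided permutation test (adjusted exact p of 0.343 to 0.714, where the smallest unadjusted p that 4 against 4 libraries allow is 0.0286). Slc25a33 made up 37.7%, 41.9%, 59.0% and 55.7% of its pair with Slc25a36 in IL-10+ replicates 1 to 4, against 25.6%, 33.9%, 51.3% and 45.4% in IL-10- replicates 1 to 4. The share was higher in IL-10+ cells by 7.68 to 12.1 percentage points in each number, and the groups overlap, with replicates 1 and 2 below 3 and 4 in each (exact p = 0.257, exact sign-flip p within numbers 0.125, the smallest that 4 pairs allow). Mitoferrin-1 (Slc25a37) took 34.4% ± 6.20 of its pair with mitoferrin-2 (Slc25a28) in the IL-10+ group and 30.1% ± 4.29 in the IL-10- group (SD, n = 4, exact p = 0.286), again higher in all 4 numbers. Slc25a4 took 15.4% ± 0.333 of the 2 translocases in the IL-10+ group and 15.8% ± 0.265 in the IL-10- group (SD, n = 4, exact p = 0.0571), lower in all 4 numbers by 0.308 to 0.652 percentage points. The share of Slc25a12 of its pair with Slc25a13 was 71.0% ± 2.74 in the IL-10+ group and 70.3% ± 4.70 in the IL-10- group (SD, n = 4, exact p = 0.714), with 2 numbers in each direction.

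**Figure D4:**
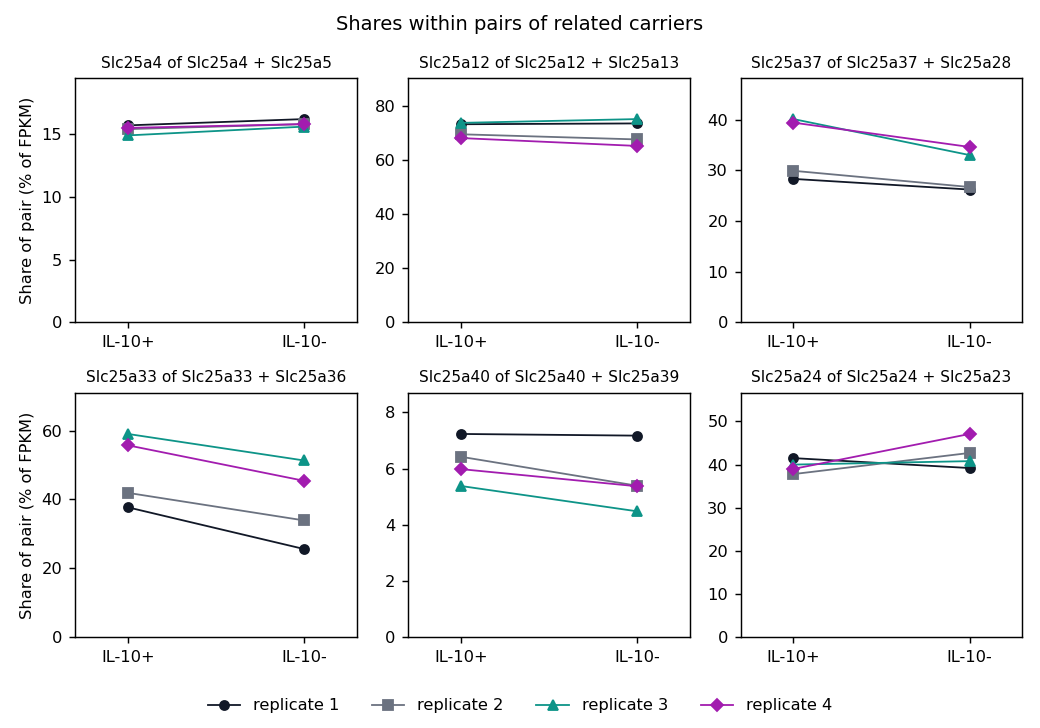
Share of the first carrier in each of 6 pairs, in percent of the pair's summed FPKM, in IL-10+ (left) and IL-10- libraries (right), joined by replicate number, with axes that start at 0. The share of Slc25a33 and that of Slc25a37 are higher in the IL-10+ library of every number, and within each group replicates 3 and 4 lie above 1 and 2.

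The 11 members below the filter were Slc25a2, Slc25a18, Slc25a27, Slc25a29, Slc25a31, Slc25a32, Slc25a34, Slc25a35, Slc25a41, Slc25a43 and Slc25a47, and they entered no test of the planned fit. Slc25a32, a folate and FAD carrier, lay just below the filter (0.752 to 1.12 FPKM in the IL-10+ group and 0.774 to 1.37 FPKM in the IL-10- group), and Slc25a26, the S-adenosylmethionine carrier, lay just inside it (0.965 to 1.26 FPKM in IL-10+ and 0.966 to 1.31 FPKM in IL-10- libraries). Slc25a31, the translocase ANT4 of the testis, had 1 read in 1 IL-10+ library and was listed at 0 in the other 7. Slc25a18, a second glutamate carrier, stood at 0.554, 0.487, 0.453 and 0.860 FPKM in IL-10+ replicates 1 to 4, against 0.318, 0.330, 0.260 and 0.314 FPKM in IL-10- replicates 1 to 4, from 14 to 46 reads a library. Slc25a34, with at most 11 reads, passed as higher only where no filter on low values was used (0.0821 to 0.143 FPKM in IL-10+ against 0 to 0.0669 FPKM in IL-10- libraries, adjusted p = 0.0350). Slc25a41 had at most 6 reads, Slc25a2 had 2 to 8 and Slc25a43 had 5 to 18 reads a library. Slc25a27, Slc25a29, Slc25a35 and Slc25a47 lay between 0.405 and 1.36 FPKM in the IL-10+ group and between 0.431 and 1.49 FPKM in the IL-10- group.

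Carrier proteins reach the inner membrane through the TOM pore, the small TIM chaperones and the TIM22 complex. Of 13 genes of this route 12 were tested and none was called in limma without the block (0 had an unadjusted p under 0.05). Their median log2 change was -0.12. With the block 1 was called higher and 7 lower (66.7%, against 53.7% of all tested genes). By direction 8.33% were higher and 58.3% lower, against 20.4% and 33.3% of all tested genes. With the block and either other scaling 1 was called higher and 4 lower, so 5 of 12. Called over all tested genes were 50.6% and 50.0%, with 28.1% and 27.5% lower. Tomm22, a receptor of the pore and the most abundant of the import genes, averaged 83.5 ± 9.90 FPKM in the IL-10+ group and 89.9 ± 12.6 FPKM in the IL-10- group (adjusted p = 0.619). It was lower in all 4 numbers and was called lower with the block (adjusted p = 0.0466), but not with the block and either other scaling (0.106 and 0.115). Of 28 other mitochondrial transporters and channels 22 were tested, and 1 rose and 1 fell (9.09%, against 19.7% of all tested genes). With the block 1 was called higher and 8 lower (4.55% and 36.4%, together 40.9%). Of all tested genes 20.4% were higher and 33.3% lower in that fit, together 53.7%. With the block and either other scaling 1 was called higher and 5 lower, where 50.6% and 50.0% of all tested genes were called. Mpc2, a subunit of the pyruvate carrier, rose, with 4.28, 4.15, 4.81 and 4.23 FPKM in IL-10+ replicates 1 to 4, against 2.83, 2.96, 3.73 and 3.48 FPKM in IL-10- replicates 1 to 4 (log2 change 0.34, SE 0.0863, adjusted p = 0.0248, with the call lost in 5 of 8 cases where 1 library was left out, highest adjusted p = 0.0764). Its partner subunit Mpc1 stood at 2.36 ± 0.501 and 3.22 ± 0.672 FPKM in the IL-10+ and IL-10- groups and was called lower only with the block (adjusted p = 0.148 without and 0.0117 with it). Sfxn3, a sideroflexin, a family that includes serine transporters, fell to 2.59 ± 0.465 FPKM in IL-10+, against 4.22 ± 0.730 FPKM in IL-10- libraries (log2 change -0.54, SE 0.122, adjusted p = 0.0154). Ucp2, an uncoupling protein of the same family under another name and the most abundant of this list, had 69.9 to 74.3 FPKM in the IL-10+ group and 78.5 to 90.9 FPKM in the IL-10- group without overlap (adjusted p = 0.0563 without and 0.00757 with the block).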

How the data were processed

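Bulk RNA-seq was given as 1 table of FPKM values that the authors made for 26589 genes in 8 libraries. The submitters' processing notes name HISAT2 2.1.0, HTSeq 0.6.0 and mm10. Which annotation and strand setting were used, and how shared reads were counted, the sources used here do not state. Groups and replicate numbers came from the titles and columns from the descriptions, and the protocols were followed over a tag that reads untreated. Names and positions came from GENCODE M21 on GRCm38 (mm10), which held 26517 of the identifiers and lacked 72. Slc25a21, Slc25a48, Slc25a52 and Slc25a54 were not analysed here.

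FPKM times exonic length and 1 total per library gave whole reads within 0.05 for 93.5% to 93.6% of values, and in all 8 libraries for 38 of the 44 members, so no count test was run. limma 3.58.1 (R 4.3.3) compared the groups on log2(FPKM + 1), which understates changes of low genes, with a variance trend, over the 11329 genes that reached 1 FPKM in 4 or more libraries. The threshold was a Benjamini-Hochberg adjusted p of 0.05. Same-numbered libraries deviated together from their group means, with correlations across genes of 0.71, 0.58, 0.62 and 0.70. The rule used therefore takes them as pairs, but only in the fits with the replicate block and the sign-flip test of the shares. The planned fit and the fits with 1 library left out were unpaired. The labels do not state the pairing. Exact permutation tests used SciPy 1.17.1. The fit was tested on simulated data.

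Named carriers were those called with or without the block, the most abundant of each role and uncalled members of at least 5 FPKM, and members below the filter by name. Further carriers in the text were picked with their values in view. The members and lists were chosen with earlier results of these data known. A member that entered the fits and the counts is not reported here by name and is left out of the figures. Alternatives were another pseudocount, other filters and scalings, the replicate block and leaving out each library.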

Additional observations from a re-analysis of the deposited data

Results flagged for a closer look

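In 3 of 60 groups of 4 values checked (24 carriers and 6 pair shares in each sort group), 1 library stood far from the other 3, and chance alone flags about 1 in 20 such groups. Slc25a51 stood at 13.1 FPKM in IL-10+ replicate 4, below the other IL-10+ libraries at 14.8 to 14.9 FPKM and above all IL-10- libraries. Slc25a17 stood at 38.3 FPKM in IL-10- replicate 2, against 33.3 to 33.7 FPKM in the other IL-10- libraries, and the sign of its uncalled log2 change turned without that library. Slc25a12 stood at 11.6 FPKM in IL-10+ replicate 2, against 11.0 to 11.1 FPKM in the other IL-10+ libraries.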

How the results depend on the processing

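The number of carriers called higher was 1 in the planned fit, 2 without a filter on low values and 5 with the replicate block, alone or with either scaling. The number called lower was 3 in the planned fit, 0 with scaling without immunoglobulin and mitochondrial genes, 15 with the block, 15 with the block and median-of-ratios scaling and 14 with the block and the other scaling. Over all genes 6083, 5719 and 5663 were called in these 3 blocked fits, against 2236 in the planned fit. Import genes called were 8, 5 and 5 in the blocked fits against 0, and other transporters 9, 6 and 6 against 2, with 1 where no filter was used and 0 at a minimum of 5 FPKM. Mpc2 and Sfxn3, the 2 called in the planned fit, did not reach that minimum in 4 libraries and so were not tested there. The members' median log2 change was -0.15 with a pseudocount of 0.1, -0.064 without a filter and -0.17 at a minimum of 5 FPKM. With 1 library left out, 1 carrier was called higher in each fit, 0 to 5 lower, 1550 to 2045 genes in all, 0 import genes and 1 to 2 other transporters, and the median was -0.13 to -0.071. The 5 stood without IL-10+ replicate 1, and the 0 without IL-10+ replicate 2, 3 or 4 or IL-10- replicate 1, 2 or 3. The uncalled change of Slc25a12 turned to 0.0086 and that of Slc25a37 to 0.0014 with median-of-ratios scaling, and to 0.012 and 0.0043 with the other scaling, with or without the block. Left-out libraries gave -0.10 to 0.028 for Slc25a37 and -0.061 to 0.0042 for Slc25a17. The cause was not tested. Left-out libraries gave share differences, IL-10+ minus IL-10-, of -0.565 to -0.301 percentage points for Slc25a4, -0.948 to 2.35 for Slc25a12, 2.43 to 6.37 for Slc25a37, 5.02 to 13.6 for Slc25a33, 0.273 to 1.17 for Slc25a40 and -3.97 to -1.35 for Slc25a24. These shares were not tested with 1 library left out, since 4 against 3 allow no p below 0.0571. Within replicate numbers, in place of a block, the sign-flip test of the shares gave exact p of 0.125 to 0.5. Low carriers of few reads are limited by depth.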
